A study of Vaccinium corymbosum with 9 samples.

Results

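MYB1 and MYB9 are 2 blueberry genes, each named for a MYB transcription factor in the deposited table, that were almost silent in early green fruit and strongly expressed once the fruit had begun to color. They are 2 of the 93716 genes in that table, VaccDscaff1486-snap-gene-0.3 for MYB1 and VaccDscaff6-snap-gene-261.32 for MYB9. Both were chosen by their measured levels, known beforehand to be higher in ripening fruit than in green fruit. Each also had the largest log2 rise at color break among the genes of its MYB name. The rise was 11.31 for MYB1, against 8.66 and 7.96 for the others of that name. For MYB9 it was 6.63, against 6.03 and 5.62. The difference of these members from early green fruit is therefore described here without a test. Both carry the KEGG ortholog K09422, the class of plant MYB transcription factors. The other 58 genes whose protein description names a MYB serve as context.

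RNA was taken from fruit of field-grown Vaccinium corymbosum 'Bluecrop', a highbush blueberry cultivar, with no treatment applied. Fruit was sampled at 3 stages, early green, color break and mature, with 3 biological replicates at each stage and 9 libraries in all. The estimated counts summed to between 52919289 and 67604266 per library. The library protocol in the labels speaks of alkaline stress in a poplar hybrid, while organism field and protein descriptions are those of blueberry and its relatives. The study was set up to follow wax formation on the fruit, and pigment regulators are part of the same expression table. Levels are given as FPKM, fragments scaled by transcript length and by library depth, so that genes of different length can be compared.

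MYB proteins of the R2R3 type are DNA-binding regulators that act in many plant pathways. In apple, grape and other fruit, some of them turn on the genes of anthocyanin synthesis, the red to blue pigments of fruit skin, usually in a complex with a bHLH protein and a WD40 repeat protein. Related MYB proteins act on proanthocyanidins, the tannins of young fruit and seed coats, and others act as repressors. In Arabidopsis, MYB5 acts in seed coat mucilage and in trichomes.

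The MYB1 gene lies on the plus strand of scaffold 1486, from base 3155 to base 6167, in 3 exons with a transcript of 798 bases. It is the only gene annotated on that scaffold. Positions are those of the deposited table, with no genome build named in the sources used here. The table attaches 4 GO terms to it, among them positive regulation of anthocyanin biosynthesis. In early green fruit its level was 0, 0.0841 and 0.0821 FPKM, from 0, 5 and 4 estimated counts. At color break it was 124, 155 and 127 FPKM, from 5890, 8964 and 7702 counts. In mature fruit it was 102, 102 and 80.7 FPKM, from 5123, 5167 and 3881 counts. The stages did not overlap, and every library of ripening fruit lay far above every green library. Mean levels were 0.0554 ± 0.048 FPKM in green fruit, 135 ± 17.3 at color break and 95.2 ± 12.5 in mature fruit (SD, n = 3). The color break mean was 2445 times and the mature mean 1717 times the green mean, and both ratios rest on only 9 counts in the green libraries. In the count model (edgeR) the log2 difference from green fruit was 11.31 ± 0.35 at color break and 10.78 ± 0.35 in mature fruit (SE). This SE is derived from the test statistic. DESeq2 gave a wider error, with 11.37 ± 0.50 and 10.85 ± 0.50 (SE). A count of 3 corresponds to 0.0444 to 0.0567 CPM (counts scaled to library depth) in these libraries, so in green fruit MYB1 was close to the smallest level that could be seen.

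The MYB9 gene lies on the plus strand of scaffold 6, from base 26103410 to base 26106278, in 3 exons with a transcript of 1185 bases. The table attaches 7 GO terms to it, including seed coat development, mucilage biosynthesis in the seed coat and trichome morphogenesis. In early green fruit its level was 0.17, 0.225 and 0.339 FPKM, from 13, 16 and 25 estimated counts. At color break it was 18.0, 23.7 and 19.9 FPKM, from 1275, 2031 and 1788 counts. In mature fruit it was 16.6, 16.5 and 13.1 FPKM, from 1233, 1236 and 936 counts. As with MYB1, the 3 stages did not overlap. Mean levels were 0.245 ± 0.0862 FPKM in green fruit, 20.5 ± 2.89 at color break and 15.4 ± 1.98 in mature fruit (SD, n = 3). The color break mean was 83.9 times and the mature mean 62.9 times the green mean. The log2 difference from green fruit was 6.63 ± 0.23 at color break and 6.19 ± 0.23 in mature fruit (SE).

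**Figure D1:**
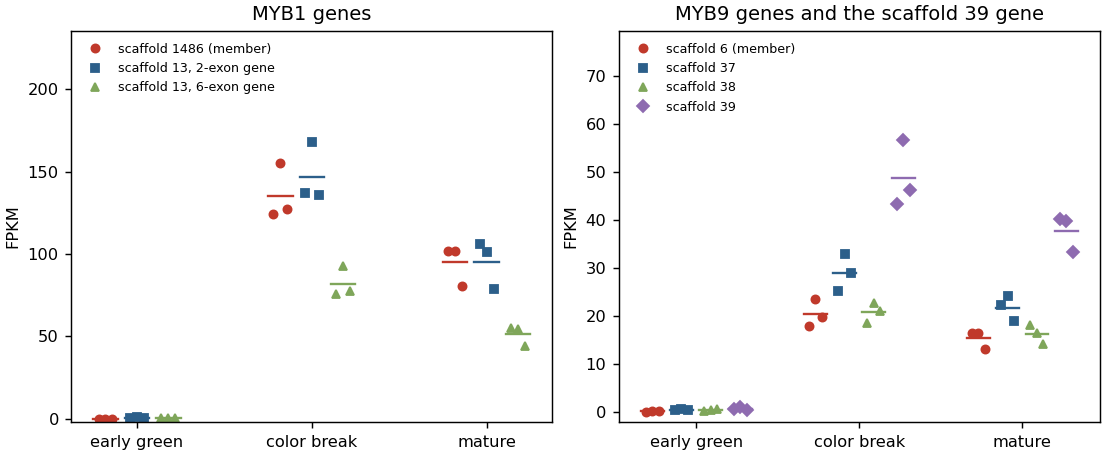
Level in FPKM (linear axis) of the MYB1 genes (left) and of the MYB9 genes with a further gene on scaffold 39 (right) in the 3 libraries of each stage, each point a library and each bar the mean of 3. All 7 genes are near 0 in early green fruit, highest at color break and lower in mature fruit, and the MYB1 member spans 124 to 155 FPKM at color break against 18.0 to 23.7 for the MYB9 member.

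Against the whole table the 2 members stood high, which is how they came to be picked and is given as description. At color break 22.8% of the 48073 genes tested differed from green fruit at an adjusted p under 0.05 and a log2 difference of at least 1, and 8.89% were higher. For mature against green fruit 24.6% were called. Libraries of color break fruit all lay above the green ones for 18.9% of genes, and those of mature fruit for 21.9%. By size of the log2 rise MYB1 ranked 19 and MYB9 ranked 185 of the 48073. By mean FPKM MYB1 ranked 78380 of 93716 genes in green fruit, 484 at color break and 755 in mature fruit. MYB9 ranked 65509, 4589 and 6213 at the same stages. Among the 261 genes of the K09422 class MYB1 moved from rank 187 in green fruit to rank 1 at color break and in mature fruit. Another gene described as MYB1, VaccDscaff13-snap-gene-106.36, carries no KEGG ortholog and so was not ranked. Its mean was 147 FPKM at color break, against 135 for the member, and 95.2 in mature fruit, equal to the member. MYB9 moved from rank 123 to rank 10 and then 11 in that class. The gene with the highest level of the class in green fruit, VaccDscaff41-processed-gene-38.2, a hypothetical protein, went from 52.6 to 87.0 and then 74.4 FPKM.

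Markers of seed and of green tissue also differed between these stages, and their values stand beside every difference from green fruit. The summed level of 112 genes for seed storage proteins and oil body proteins ran from 24995 to 30300 FPKM in green fruit, from 1552 to 2321 at color break and from 1565 to 1798 in mature fruit. Of the 85 that were tested, 65 fell at color break and 4 rose, where 13.9% of all genes tested fell and 8.89% rose. The summed level of 63 chlorophyll a/b-binding genes ran from 487 to 515 FPKM in green fruit, from 270 to 300 at color break and from 161 to 184 in mature fruit, and 26 of the 35 tested fell at color break while 4 rose. The part of these shifts in the rise of MYB1 and MYB9 was not tested. In bulk fruit RNA, fewer cells of a type and less RNA per cell cannot be told apart. The green libraries correlated with the ripening ones at 0.734 to 0.786 (log2 CPM across genes), against 0.970 to 0.971 among themselves. The third color break library correlated with the other color break libraries at 0.940 and 0.945, against 0.969 between those, and held the highest seed storage sum of its stage, 2321 FPKM.

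From color break to mature fruit both genes were lower, and this step was tested in the model over all genes. It shares the color break libraries with the choice of the genes. Mature MYB1 stood at 70.2% of its color break mean and mature MYB9 at 75.0%. For each gene all 3 mature libraries lay below all 3 color break libraries, a pattern that 12.0% of the genes tested showed. The log2 difference was -0.53 ± 0.19 for MYB1 and -0.43 ± 0.16 for MYB9 (SE), with an adjusted p of 0.15 for each by edgeR's quasi-likelihood test with Benjamini-Hochberg adjustment. Neither gene was called, in a comparison where 1.37% of genes were. Other settings moved the adjusted p of MYB1 between 0.0015, with DESeq2, and 0.35, and that of MYB9 between 0.056 and 0.37, and none gave a log2 difference that reached 1.

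The MYB1 member stood above the MYB9 member in every ripening library. Other genes of the same names, given below, may share reads with them. Summed over the 3 genes of each name, mean levels were 365 against 70.5 FPKM at color break and 241 against 53.5 in mature fruit. The FPKM ratio of the MYB1 to the MYB9 member was 6.86, 6.55 and 6.40 at color break and 6.17, 6.21 and 6.16 in mature fruit. The mature ratios all lay below the color break ratios, and the share of all gene pairs with such a pattern was not computed. On the log2 scale MYB9 relative to MYB1 was -2.72 ± 0.05 at color break and -2.63 ± 0.01 in mature fruit (SD, n = 3). The difference of 0.10 gave p = 0.1 in an exact two-sided permutation test, the smallest p that 3 against 3 libraries allow. As this lies above the cutoff of 0.05 used for calls, the test could not have passed and decides nothing.

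Other genes of the same 2 names moved with them. They are called copies here by description only, as sequences were not analysed. The table describes 2 further genes as MYB1, both on the minus strand of scaffold 13 and 4 bases apart. Whether this pair is 2 genes or parts of 1 was not tested. The gene with 2 exons, VaccDscaff13-snap-gene-106.36, spans bases 10558734 to 10561795 and was at 0.427 ± 0.301 FPKM in green fruit, then at 147 ± 17.9 and in mature fruit at 95.2 ± 14.2. It had the highest level of all genes described as MYB at color break. The gene with 6 exons, VaccDscaff13-snap-gene-106.35, spans bases 10561800 to 10568172 and was at 0.381 ± 0.139, 82.0 ± 9.32 and 51.2 ± 6.03 FPKM. Both rose at color break, by 8.66 ± 0.37 and 7.96 ± 0.20 on the log2 scale (SE). In mature fruit the gene with 6 exons was lower by a log2 difference of -0.70 ± 0.13 with an adjusted p of 0.018 (edgeR), short of the log2 of 1 needed for a call. The gene with 2 exons was at -0.65 ± 0.24 with an adjusted p of 0.16 (edgeR).

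Levels of single copies are uncertain, because reads from near-identical copies may be divided among them by the counting, and the labels do not say how this was done. A further gene of 336 bases, VaccDscaff13-processed-gene-105.18, lies inside the MYB1 gene with 2 exons on the opposite strand. It went from 0.42 ± 0.186 to 55.5 ± 4.42 and then 32.4 ± 3.31 FPKM. The labels do not say whether counting used strand, so its reads and those of MYB1 cannot be told apart. Summed over the 3 MYB1 genes the level was 0.864 ± 0.264 FPKM in green fruit, 365 ± 44.4 at color break and 241 ± 32.6 in mature fruit (SD, n = 3). The sum still depends in part on how reads were divided, since the transcripts differ in length. If the scaffold 13 pair is parts of 1 gene, the sum counts that gene more than once and the shares given next are too low. The gene on scaffold 1486 made up 0, 7.22 and 10.8% of the sum in the green libraries, from counts near 0. It made up 36.7 to 37.3% at color break and 38.9 to 39.7% in mature fruit. Fitted as a sum, the log2 difference from green fruit at color break was 9.05, below the 11.31 of the scaffold 1486 gene alone. The sum at maturity was 66.2% of its color break mean, with a log2 difference of -0.60 and an adjusted p of 0.057 (edgeR).

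MYB9 also appeared as 3 genes. VaccDscaff37-snap-gene-143.27 on scaffold 37, bases 14370780 to 14372612, was at 0.534 ± 0.117 FPKM in green fruit, 29.1 ± 3.82 at color break and 21.8 ± 2.64 in mature fruit. VaccDscaff38-snap-gene-163.31 on scaffold 38, bases 16286616 to 16288860, was at 0.511 ± 0.202, 20.9 ± 2.16 and 16.3 ± 2.04 FPKM. Both rose at color break, by 6.03 ± 0.18 and 5.62 ± 0.25 on the log2 scale (SE), and neither was called between color break and maturity. Over the 3 genes the level was 1.29 ± 0.36 FPKM in green fruit, 70.5 ± 8.8 at color break and 53.5 ± 6.27 in mature fruit, which is 75.9% of the color break mean. The gene on scaffold 6 made up 28.3 to 29.8% at color break and 28.3 to 29.1% in mature fruit. All 6 MYB1 and MYB9 genes were highest in the second color break library and lowest of the ripening libraries in the third mature library. The 6 may share reads, and the share of all genes with this pattern was not computed. Each enzyme sum given below was also lowest of the ripening libraries in the third mature library. Several of those sums, though not all, were highest in the second color break library. The pattern is thus not particular to these genes.

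The neighbours of the MYB9 genes were alike, a feature that the choice did not use. Upstream of each of the 3 genes, counted along its own strand, the nearest annotated gene was described as Vadar_004471 (K16585, with a GO term for microtubule nucleation), 38.9, 39.6 and 36.2 kb away on scaffolds 6, 37 and 38. Downstream it was Vadar_019212 (K00275, a pyridoxamine phosphate oxidase by its GO term), 97.0, 94.8 and 122 kb away. The upstream gene lay on the opposite strand to MYB9 at each place and the downstream gene on the same strand. These neighbours were low. Of the 8 beside the 3 MYB9 genes and the scaffold 39 gene below, 7 were tested. At color break 0 of these were called by edgeR or DESeq2, with 3 at an unadjusted p under 0.05 (edgeR). Of all genes tested 22.8% were called there by edgeR, so 7 genes are too few to set the neighbours apart. On scaffold 6 the upstream neighbour, VaccDscaff6-augustus-gene-260.19, was at 1.05, 0.912 and 0.584 FPKM from green to mature and the downstream one, VaccDscaff6-snap-gene-262.14, at 0.772, 0.52 and 0.445.

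A further gene with these neighbours was found after the values were seen. VaccDscaff39-snap-gene-168.25, a hypothetical protein (Vadar_030404) on the minus strand of scaffold 39, bases 16827118 to 16831126, carries K09422 and the same 7 GO terms as MYB9, with Vadar_004471 12.7 kb upstream and Vadar_019212 42.7 kb downstream. Its levels were 0.602, 1.07 and 0.576 FPKM in green fruit, 43.4, 56.7 and 46.3 FPKM in color break fruit, and 40.2, 39.9 and 33.3 in mature fruit. In both ripening stages it stood above each of the 3 genes described as MYB9 in every library. Its log2 difference from green fruit at color break was 6.28 ± 0.23 (SE). With it, the summed level of the 4 genes was 2.04 ± 0.516 FPKM in green fruit, 119 ± 15.6 at color break and 91.3 ± 10.2 in mature fruit. The gene on scaffold 1486 had no annotated neighbour to compare.

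**Figure D2:**
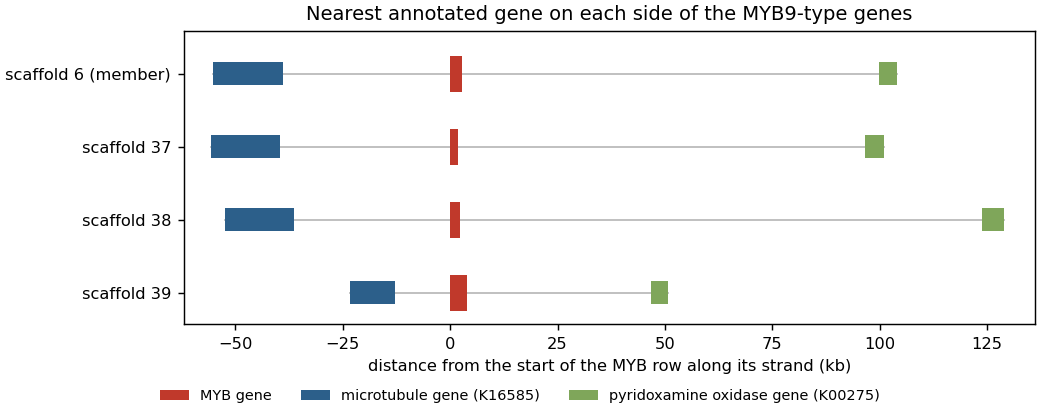
Map of the 4 scaffold stretches that hold the MYB9 genes and the scaffold 39 gene, drawn along the strand of the MYB gene, with distance from its start in kb on the x axis and bars to scale. Each MYB gene (red) lies between a gene of the microtubule class (blue) 12.7 to 39.6 kb upstream and a pyridoxamine oxidase gene (green) 42.7 to 122 kb downstream.

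Genes with the same GO terms did not all behave alike. The 4 terms of MYB1 were attached to 9 genes in all, and 3 of these, the MYB1 genes, passed the filter on low values. Of the 6 others, a pair described as MYBA2, a name used for anthocyanin regulators in grape, lies on scaffold 13 beside the MYB1 pair. Their mean levels were 0.156 and 0.186 FPKM in green fruit, then 0.0169 and 0.0374, and 0 in mature fruit, too low to be tested. A gene described as MYB113, a name of an anthocyanin regulator in Arabidopsis, was at 0.0687, 0.0229 and 0.0246 FPKM. The 7 terms of MYB9 were attached to 13 genes. These included 5 described as MYB10, another name of an anthocyanin regulator in apple and strawberry, and of the tested ones VaccDscaff39-augustus-gene-189.28 was at 4.94, 4.81 and 5.11 FPKM from green to mature and VaccDscaff92-augustus-gene-4.28 at 3.06, 2.21 and 2.46. Neither was called in any comparison.

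Of the 58 other genes described as MYB, 26 passed the filter. At color break 6 rose and 7 fell, against 8.89% of all genes tested that rose and 13.9% that fell. The median log2 difference of the 26 was -0.26, beside -0.01 for all genes tested. Of the 6 that rose, 4 were the copies of MYB1 and MYB9 already given, which may share reads with the members. The other rises were of a pair described as MYB21, a name of a regulator of stamen development in Arabidopsis. VaccDscaff44-augustus-gene-196.26 went from 6.64 ± 0.847 FPKM in green fruit to 36.1 ± 5.36 at color break and 27.5 ± 2.65 in mature fruit, a log2 rise of 2.71 ± 0.14 with an adjusted p of 2.0e-07 (edgeR). VaccDscaff28-augustus-gene-197.19 went from 4.69 to 22.8 and then 17.0 FPKM. Among tested genes described as MYB, the copies of MYB1 and MYB9 thus had larger log2 rises than any other, 5.62 to 8.66 against 2.71 or less.

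The falls were of genes with lower levels. The largest was VaccDscaff239-augustus-gene-0.53, described only as a MYB transcriptional factor, which went from 2.11 FPKM in green fruit to 0.125 at color break and 0.182 in mature fruit, a log2 fall of -3.73 ± 0.47 (adjusted p = 1.1e-04, edgeR). All 3 tested genes with names of repressors fell, and all are described as MYBC2.4, a type known as a repressor of flavonoid genes in grape. VaccDscaff38-augustus-gene-184.29 fell from 4.89 to 0.728 FPKM, by -2.46 ± 0.30 on the log2 scale with an adjusted p of 8.1e-05 (edgeR). VaccDscaff37-augustus-gene-96.16 went from 3.60 to 0.608 FPKM and VaccDscaff6-augustus-gene-184.14 from 4.76 to 1.23. The remaining falls were of genes described as MYB101-like, MYB108 and MYB29. The MYB101-like gene, VaccDscaff8-snap-gene-10.35, had an adjusted p of 0.036 (edgeR) and lost its call under 10 of the alternatives, and the MYB29 gene, VaccDscaff4-augustus-gene-317.25, lost its call under 6. Among genes whose description names a MYB, the highest level in green fruit was that of VaccDscaff18-processed-gene-237.11, described as MYB25, with 45.8 ± 1.76 FPKM there, 22.9 ± 1.06 at color break and 25.1 ± 0.365 in mature fruit. It was not called, with a log2 difference of -0.73 ± 0.06 at color break, and was called at -1.02 when counts were scaled by library size only.

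**Figure D3:**
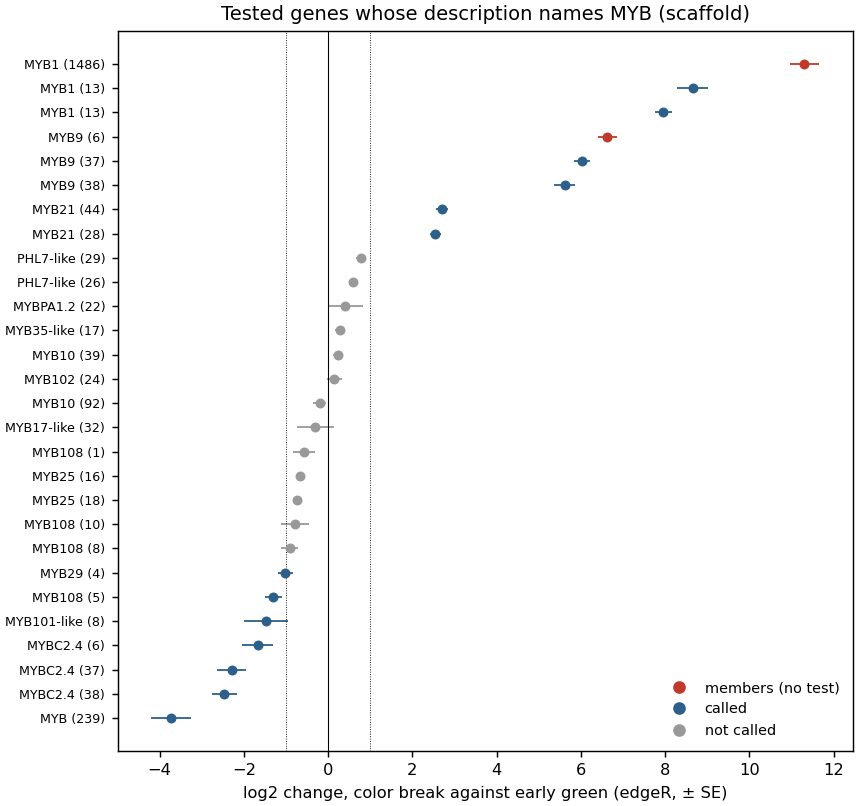
Log2 difference of color break from early green fruit for the 28 tested genes whose description names a MYB, with the scaffold in parentheses, edgeR estimates with SE bars and dotted lines at a log2 of -1 and 1. The MYB1 and MYB9 members and their copies lie at 5.62 to 11.31, the MYB21 pair at 2.55 and 2.71, and the 7 called falls between -1.02 and -3.73.

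Between color break and maturity none of the 26 was called by edgeR, where 1.37% of all genes were, so that few or no calls are what the background gives. Their median log2 difference was -0.08. At an adjusted p under 0.05 without regard to fold, which 6.09% of all genes tested reached and 3.34% in the lower direction, 2 were lower and 1 was higher. At an unadjusted p under 0.05 there were 8, and DESeq2 called 0 of the 26. Leaving out the first mature library gave 1 call, of a MYB108 gene, VaccDscaff5-processed-gene-8.0, with a log2 difference of 1.10. In the whole K09422 class 79 tested genes remained without the members. At color break 18 of them rose and 26 fell, where 8.89% of all genes tested rose and 13.9% fell. The 18 include the scaffold 39 gene and the MYB9 copies on scaffolds 37 and 38, which may share reads with the member. Between color break and maturity none of the 79 was called by edgeR, where 1.37% of all genes were. At that step 22 had an unadjusted p under 0.05 (edgeR) and 2 were called by DESeq2. MYB1 and MYB9 themselves were lower at maturity and short of a call.

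For the partner proteins of MYB regulators 9 genes were tested and 0 rose at color break, where 8.89% of all genes did, so the count is too small to set them apart. The lists rest on names and, for WD40, a KEGG class. Of 3 genes with names of bHLH partners, 1 was tested, VaccDscaff1602-snap-gene-0.7, described as EGL1-like. It fell from 1.17 FPKM in green fruit to 0.117 at color break and was at 0.176 in mature fruit, a log2 difference of -3.03 ± 0.28 (adjusted p = 1.2e-05, edgeR). No gene description matched the names TT8 or GL3, which mark such partners in Arabidopsis. All 8 genes listed for the WD40 partner were tested and none was called at color break by edgeR or DESeq2, with 2 at an unadjusted p under 0.05 (edgeR) and a median log2 difference of 0.19. The highest of them, VaccDscaff28-augustus-gene-346.33, was at 7.25, 6.30 and 7.60 FPKM from green to mature fruit. Names of flavonol and cuticle MYB regulators and of anthocyanin transporters matched no gene description.

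The enzymes of flavonoid and anthocyanin synthesis were high in the same fruit as MYB1 and MYB9. Beside the counts below, 8.89% of all genes tested rose at color break and 13.9% fell. Of the early enzymes, all 12 tested chalcone synthase genes rose at color break, with a median log2 difference of 8.29, and 8 of 9 chalcone isomerase genes rose while 1 fell. All 8 flavanone 3-hydroxylase genes rose, with a median of 5.63. All 4 flavonoid 3'-hydroxylase genes rose, with a median of 6.06, and 10 of 13 flavonoid 3',5'-hydroxylase genes, which lead to blue pigments, rose while 1 fell. Of the late enzymes, all 5 dihydroflavonol reductase genes rose, with a median of 3.63. For anthocyanidin synthase 3 of 4 genes rose and for flavonoid 3-glucosyltransferase 4 of 5, with medians of 8.06 and 9.10. The anthocyanidin synthase gene with the largest rise, VaccDscaff46-augustus-gene-11.23, went from 1.21 FPKM to 487 and then 430. The glucosyltransferase gene with the largest rise, VaccDscaff39-processed-gene-2.0, went from 0.838 to 416 and then 368 FPKM. These lists were chosen with such rises known, so their counts describe the fruit in which the members were high and are no independent evidence.

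Between color break and maturity 1 of the 60 tested genes of the 8 enzyme lists was called, a share near the 1.37% of all genes called at this step. It was VaccDscaff18-augustus-gene-373.31, a chalcone isomerase-like protein that had fallen at color break and rose by 1.44 ± 0.16 on the log2 scale (SE). Summed over the genes of each enzyme, mature levels ranged from 74.9 ± 9.68% of the color break mean for chalcone isomerase to 102 ± 3.33% for flavonoid 3',5'-hydroxylase (SD, n = 3). Chalcone isomerase thus stood level with MYB9, at 75.0 ± 9.63%, and near MYB1, at 70.2 ± 9.21%. The other 6 enzymes lay between 82.5 ± 10.3% for flavonoid 3-glucosyltransferase and 92.4 ± 11.8% for chalcone synthase.

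The log2 ratio of each member to each enzyme sum was compared between the stages within libraries, a comparison chosen after the values were seen. For MYB1 the mature ratio differed from the color break ratio by -0.39 for chalcone synthase, -0.28 for dihydroflavonol reductase, -0.31 for anthocyanidin synthase and -0.23 for flavonoid 3-glucosyltransferase. For MYB9 the differences were -0.30, -0.18, -0.21 and -0.13 in the same order. Against chalcone isomerase they were -0.09 for MYB1 and 0.01 for MYB9, with libraries that overlapped and p = 0.4 and p = 1 in exact two-sided permutation tests. In the other 14 of the 16 comparisons the 3 mature libraries lay below the 3 color break libraries. Each of these gave p = 0.1 in the exact permutation test, the smallest that 3 against 3 allow. The adjusted p over the 16 was 0.11. That smallest p lies above the cutoff used for calls, so no comparison could have passed and the test decides nothing. The comparisons reuse the same members and libraries, so the 14 are not separate observations. The share of all genes with such ratios was not computed.

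**Figure D4:**
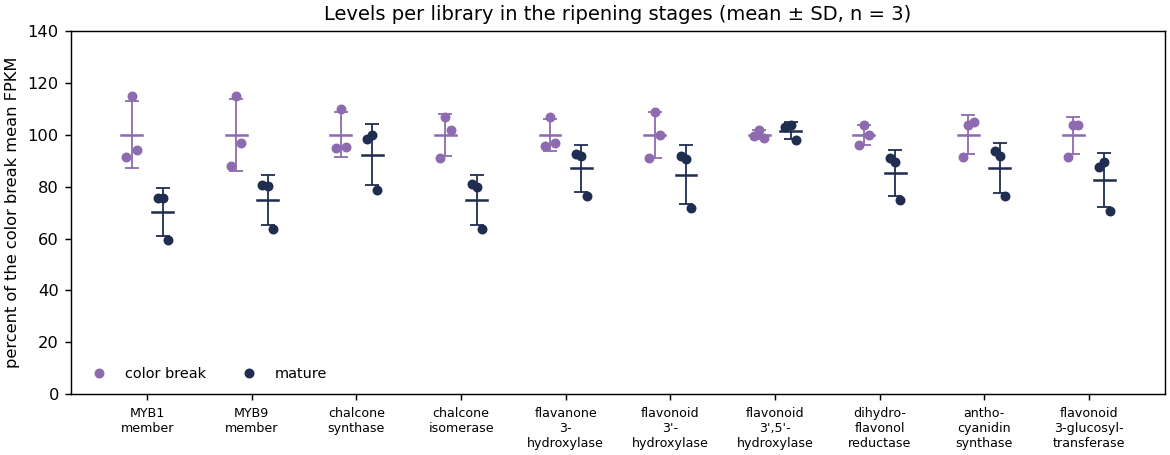
Level in each color break and mature library as a percent of the color break mean FPKM, for the MYB1 and MYB9 members and for the summed genes of 8 enzymes, points for libraries and bars for mean ± SD (n = 3). Mature means lie at 70.2% for MYB1, 75.0% for MYB9 and 74.9% for chalcone isomerase, and between 82.5% and 102% for the other 7 enzymes.

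Genes with the most similar profile over the 9 libraries were found by the smallest root mean square difference in log2(FPKM + 1) after centring each gene on its own mean. For MYB1 the nearest was a UDP-glucose flavonoid 3-O-glucosyltransferase, VaccDscaff6-augustus-gene-420.36, at a difference of 0.15, with mean levels of 0.453, 207 and 165 FPKM from green to mature. Next were VaccDscaff22-augustus-gene-131.24 (K05277, the anthocyanidin synthase class) at 0.20, the MYB1 copy with 2 exons, VaccDscaff13-snap-gene-106.36, at 0.21, VaccDscaff30-augustus-gene-282.25 (a glutathione transferase by its GO term) at 0.33 and a leucoanthocyanidin dioxygenase, VaccDscaff43-augustus-gene-236.29, at 0.35. The glutathione transferase gene was at 0.13 FPKM in green fruit, 152 at color break and 165 in mature fruit, and so did not share the lower mature level.

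For MYB9 the nearest was VaccDscaff45-snap-gene-218.40, described as a hypothetical protein (K13258), at 0.08. A pair of genes of the phenylalanine ammonia-lyase class, the entry enzyme of phenylpropanoid synthesis, followed, VaccDscaff5-snap-gene-236.34 at 0.09 and VaccDscaff1-augustus-gene-185.22 at 0.10. The former had mean levels of 0.268, 22.4 and 17.4 FPKM and the latter 0.167, 17.1 and 13.7. The MYB9 copy on scaffold 37, VaccDscaff37-snap-gene-143.27, and VaccDscaff24-augustus-gene-111.29 (arogenate dehydratase by its GO term, an enzyme that makes phenylalanine) followed at 0.11 each. MYB9 ranked 125 among the genes nearest to MYB1 and MYB1 ranked 1824 among those nearest to MYB9, at a difference of 1.34. Profiles are pulled together by the shared jump from green fruit, and the measure favors genes of like level. With a pseudocount of 0.1 none of the 5 genes nearest to MYB1 and 2 of those nearest to MYB9 stayed among the first 5, and by Pearson correlation none did for either member, so the order is a description of these libraries.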

How the data were processed

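The deposited table of the authors gives FPKM and an estimated count for each gene and library. Per the submitters' processing notes fastp, HISAT2, StringTie and DESeq2 were used, with version, setting and assembly not given in the sources used here. Estimated counts as deposited are whole numbers and equal FPKM times transcript length times 1 constant per library, rounded up, within 1 count for 99.8 to 99.89% of genes.

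Samples were grouped by labelled stage. A gene entered the test when 3 or more libraries had an FPKM of 1 or more. The test was edgeR 4.0.16 in R 4.3.3 (TMM scaling, robust quasi-likelihood fit, all 9 libraries, stage as the only term) with Benjamini-Hochberg adjustment over 48073 genes. A call needs an adjusted p under 0.05 and an absolute log2 difference of at least 1. The SE given with edgeR values is the absolute log2 difference divided by the square root of the test's F statistic. It is not a standard error reported by the fit, and for genes with few counts it may be too small. The model was tested on simulated data. TMM factors were 1.13 to 1.151 in green fruit and 0.9274 to 0.9452 in the ripening stages, and log2 differences, unlike FPKM means, include them. limma 3.58.1 and DESeq2 1.42.0 served as alternatives. Exact permutation tests used scipy 1.17.1. The floor of 3 counts covers counting error only.

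Members and gene lists were chosen with earlier results of these data known. Named genes are the members, genes of the same MYB name, their nearest neighbours, the 5 nearest profiles, the 5 largest called rises and falls among MYB genes at color break, the highest MYB gene of each stage, and from each list the largest rise and fall or the highest gene. The genes that share GO terms, the scaffold 39 gene, the ratios to enzymes and the ranks in the K09422 class were added after values were seen. Sequencing reads and sequences were not analysed here.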

Additional observations from a re-analysis of the deposited data

How the results depend on the processing

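The log2 difference of MYB1 and MYB9 between maturity and color break stayed negative and uncalled under all 19 alternatives each, including the sum of copies, which was chosen after seeing the data. It ran from -0.59 to -0.42 for MYB1 and from -0.52 to -0.32 for MYB9 with single libraries left out. The adjusted p of MYB1 was 0.032 in limma on log2(FPKM + 1) and 0.046 without the first green library.

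Differences from green fruit depended on how low values were treated. For MYB1 at color break and maturity they were 7.01 and 6.50 in limma on log2(FPKM + 1), 9.82 and 9.31 with a pseudocount of 0.1, and 9.05 and 8.45 with copies summed. For MYB9 they were 4.11 and 3.71, 5.92 and 5.51, and 6.03 and 5.61, and 6.33 at color break with scaling by library size only. Leaving out single libraries gave 10.72 to 11.87 and 10.19 to 11.34 for MYB1, lowest without the first green library and highest without the second. It gave 6.41 to 6.95 and 5.98 to 6.52 for MYB9. The pseudocount shrinks differences of genes near 0 by construction.

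A mean FPKM of at least 5, which tests fewer genes, left 3488 calls at color break, 7 of them MYB genes, 196 between color break and maturity and 3776 between green and mature fruit, against 10979, 13, 661 and 11824. Calls between color break and maturity were 346 with only those 2 stages, 246 in limma on log2(FPKM + 1) and 1002 in DESeq2. They ran from 415 without the third mature library to 1050 without the third color break library, and calls of MYB genes from 0 to 1. Other ranges with libraries left out were 10523 to 11673 genes and 11 to 13 MYB genes at color break, 11406 to 12080 genes between green and mature fruit, and 0.07 to 0.12 for the difference between maturity and color break in the log2 ratio of MYB9 to MYB1. Scaling by library size only shifted the median log2 difference of all genes at color break from -0.01 to -0.31 and split the calls into 2941 higher and 9465 lower, against 4274 and 6705. Of the MYB genes 6 rose under both scalings, and 10 rather than 7 fell. The causes were not tested.

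Same-numbered libraries are not tied to each other by the labels, and their deviations correlated at -0.0301 to 0.223 across genes. Those of differently numbered libraries of 2 stages correlated at -0.174 to 0.117. The highest value, 0.223, was that of the third color break with the third mature library. With the number as a replicate block MYB1 was at -0.53 (adjusted p = 0.15) and MYB9 at -0.43 (adjusted p = 0.2) between maturity and color break, 12 MYB genes and 11144 genes were called at color break, 489 between color break and maturity and 11916 between green and mature fruit. None of these passes 1.5 times the unblocked count.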

Other observations

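A list added after the data were seen, the genes with the GO term for positive regulation of anthocyanin synthesis, held 30 genes, 17 of them tested without the members. At color break 13 rose and 1 fell, with a median log2 difference of 3.85, where 8.89% of all genes tested rose and 13.9% fell. The 13 include the MYB1 pair on scaffold 13, which may share reads with the MYB1 member. Between color break and maturity 0 were called by edgeR, where 1.37% of all genes were, and 0 by DESeq2. In edgeR 10 had an unadjusted p under 0.05 and 2 an adjusted p under 0.05 at that step. Of the 112 seed storage genes 85 were tested, and of these 2 rose and 5 fell between color break and maturity. Of the 35 tested chlorophyll a/b-binding genes 4 fell and 0 rose. At this step 1.37% of all genes tested were called.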
